A study of Saccharomyces cerevisiae with 4 samples.

Results

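Budding yeast open reading frames that are known only by a systematic name were followed among the RNAs recovered with Mex67. The members were the genes whose symbol in the platform's probe annotation was a systematic name with no standard name, with a ratio on at least 3 of 4 arrays, and 10 Ty open reading frames were left out by name. Of 415 such genes with a probe, 29 met this rule, among 498 genes of all kinds with a ratio on at least 3 arrays and 5539 genes with a probe. They were thus chosen by the presence of a ratio on the arrays. The rule set no limit on the size or side of a ratio, but the choice was made with earlier results of these data known. Whether the presence of a ratio depended on its size was not tested. In the current RefSeq gene table of the R64 assembly all 29 still had the systematic name as their symbol, 28 as protein-coding genes and 1, YPL276W, as a pseudogene. For 2 of them the table listed another name as a synonym, FDH2 for YPL276W and RRS1 for YDR341C.

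A systematic name of yeast gives the chromosome, the arm, the rank of the open reading frame from the centromere and the strand (W or C). Genes that carry only such a name are mostly those whose product has no settled function, together with open reading frames of retrotransposons and of the repeats near chromosome ends. Mex67 is the receptor that takes mature mRNA through the nuclear pores, together with its partner Mtr2. It is brought to transcripts by adaptor proteins, and RNA recovered with it can include transcripts on their way out of the nucleus. Without an untagged precipitation, such transcripts were not told apart here from RNA recovered in other ways.

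The 4 two-colour arrays of Saccharomyces cerevisiae formed 1 group, in which RNA co-precipitated with a form of Mex67 labelled zzMex67 was hybridised together with total RNA. Arrays 1 and 2 carried the precipitated RNA in channel 2, whereas arrays 3 and 4 carried it in channel 1, and the titles held 2 codes of unstated meaning, one shared by arrays 1 and 3 and the other by arrays 2 and 4. The labels do not give the strain, the growth conditions or the construct of the tag, and no untagged precipitation was analysed here. Since the labels do not name separate cultures, a p-value here covers only how these arrays vary, and that variation may be technical.

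Going by the labels' wording, a ratio is likely that of precipitated to total RNA, although its direction is not stated. If the ratios were total over precipitated RNA on every array, each "above" and "below" in the text would change places. If the direction instead followed the channel, arrays 3 and 4 would be turned against arrays 1 and 2. With arrays 3 and 4 turned, 0 of the open reading frames and 0 of all features were called. Arrays 2 to 4 were positively correlated, at r = 0.79 to 0.89 over the genes with a standard name. Turning arrays 3 and 4 against array 2 therefore makes a call unlikely in advance, and the count of 0 is no separate result. Which of these directions holds was not tested. Values are log2 ratios minus the array's median over the 498 genes, so 0 is the median gene of an array and 1 is a 2-fold higher ratio. This takes the deposited ratios as log10, which was not tested. The number of arrays limits the precision. Probes with a ratio numbered 845 to 2467 of 12800 per array. Array 1, with the fewest, had a ratio for 6 of the 29 open reading frames, and its median rested on 100 genes against 480 to 496 on the other arrays. MEX67 itself had 2 probes and a ratio on 0 arrays. RNA of a whole culture was measured, in which fewer cells with a transcript and less of it per cell cannot be told apart.

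Of the 29 open reading frames, 7 lay above the array median, 6 lay below it and 16 did not pass (limma's moderated test over all 596 features with Benjamini-Hochberg adjustment, adjusted p under 0.05). YGR153W and YHR214W stood highest, at 9.72-fold and 8.55-fold above the median, and YNL165W and YJL118W lowest, at 5.09-fold and 4.60-fold below it. The calls made up 24.1% of the open reading frames above and 20.7% below, where 22.5% and 25.2% of all features were called, so these shares were near the background and are not a result about the open reading frames as a set. Their median of the mean log2 ratios was 0.13, against -0.005 over all features and -0.03 over the 463 genes with a standard name. Of the 29, 10 were above the median on every array with a ratio and 8 were below it on every one, 62.1% in all, against 67.0% of the genes with a standard name. All 13 that were called belonged to these 18. Without array 1, with the same 596 features, 9 of the 29 lay above and 8 below, where 168 and 174 of all features did. Without array 4 these counts were 3 and 1 of the 29 and 45 and 41 of all features. Fits that leave out an array and keep the 596 features were added after seeing the data. The planned fits took features on at least 2 of the other 3 arrays. In them, 7 and 6 of the 29 were called without array 1, and 181 and 196 of 837 features. Without array 4, 0 of the 29 and 0 of 765 features were called.

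**Figure D1:**
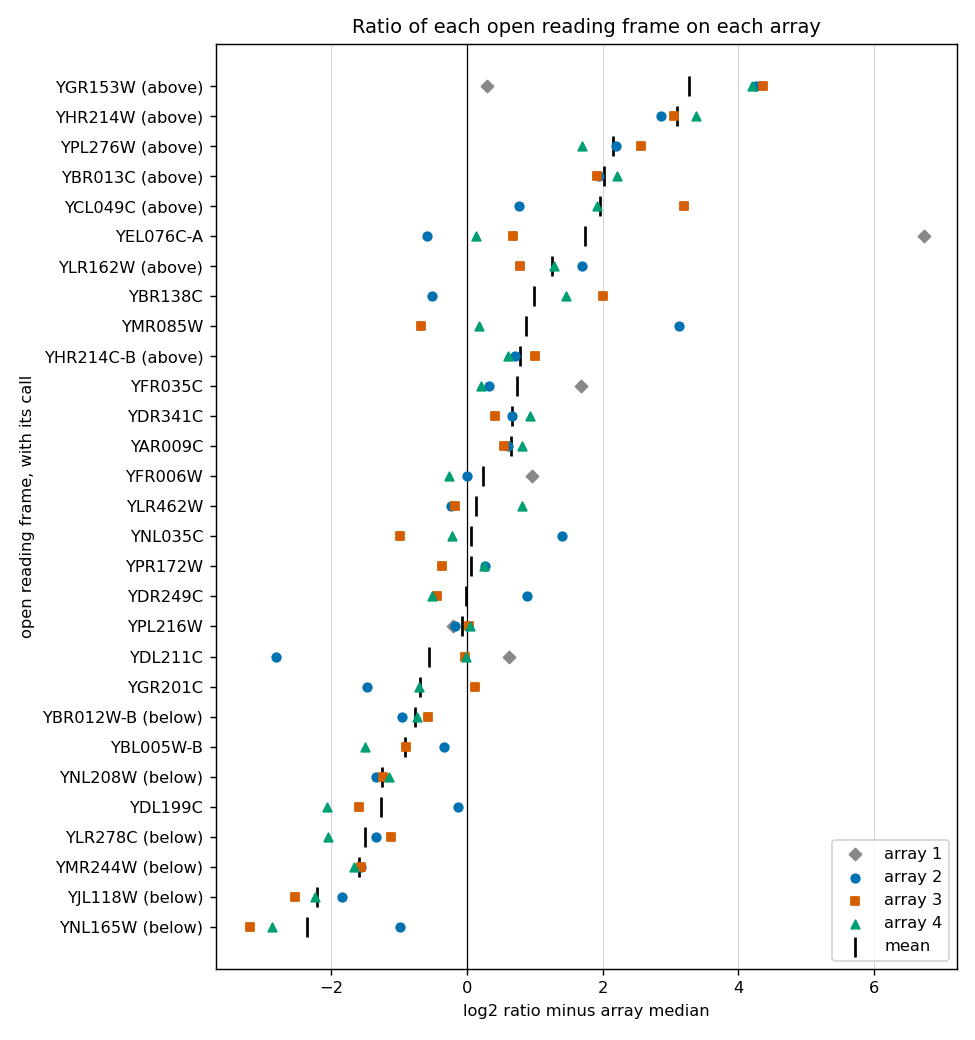
The log2 ratio of each of the 29 open reading frames minus the array median (horizontal axis) is plotted for each array (symbols), with the mean as a vertical tick, and the call stands beside each name. Arrays 2 to 4 lie close together for YNL208W, YMR244W and YBR013C, while array 1 lies far from the others for YGR153W and YEL076C-A.

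The 29 had means from -2.35 to 3.28 log2, within those of the features tested, which ran from -4.47 to 4.23. The median SD between arrays was 0.58 for the open reading frames and 0.51 for the genes with a standard name. Genes just inside the rule, the 25 with ratios on 3 arrays, had means from -2.35 to 3.10. The 18 just outside it, with ratios on 2 arrays, had means from -1.99 to 1.32.

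**Figure D2:**
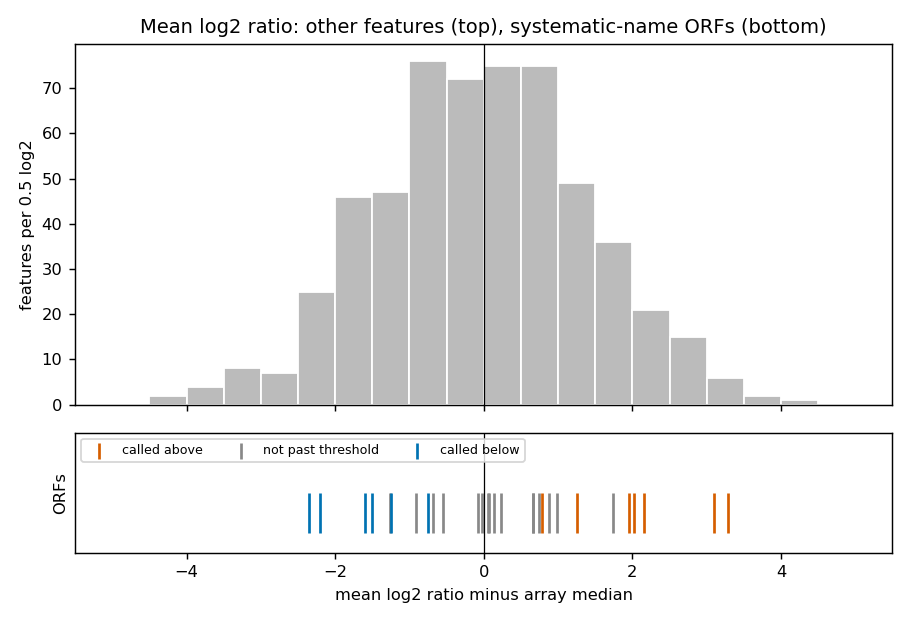
The upper panel is a histogram of the mean log2 ratio minus the array median (horizontal axis) of the other features tested, in bins of 0.5, and the lower panel marks each of the 29 open reading frames with a tick coloured by its call. The open reading frames spread over most of the range of the other features, from -2.35 to 3.28, around a median of 0.13.

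The highest mean was that of YGR153W, an open reading frame on the right arm of chromosome VII. It had log2 ratios of 0.30, 4.26, 4.37 and 4.20 on arrays 1 to 4, so that array 1 stood near the median and the other 3 arrays stood together far above it. The mean was 3.28 ± 1.99 (SD, n = 4; limma, adjusted p = 0.0197). Both of its probes showed the split: on array 1 they stood at 0.31 and 0.29, and on the other arrays between 3.51 and 5.01. Without array 1, with the same features, its mean was 4.27 (adjusted p = 0.000723). Without array 2, 3 or 4 its adjusted p was 0.0763, 0.0677 or 0.0636, and its mean stayed between 2.92 and 2.98.

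YHR214W, near the right end of chromosome VIII, had ratios of 2.86, 3.05 and 3.38 on arrays 2 to 4 and none on array 1. These 3 arrays agreed closely, with a mean of 3.10 ± 0.26 (SD, n = 3; limma, adjusted p = 0.00381). A near-identical copy, YAR066W on chromosome I, had 2 probes and a ratio on 0 arrays. Signal shared between the copies on spotted DNA was not tested. The mean of YHR214W averaged very different probes, as described further down, and with the lower-numbered probe alone it was 1.12 (adjusted p = 0.0165).

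YPL276W is part of FDH2, a formate dehydrogenase gene that is interrupted in the reference strain and listed as a pseudogene. It had ratios of 2.20, 2.56 and 1.70 on arrays 2 to 4, all above the median, with a mean of 2.15 ± 0.43 (SD, n = 3; limma, adjusted p = 0.00575). Only its lower-numbered probe had ratios. The other part of the interrupted gene, which the annotation names FDH2, and the intact paralog FDH1 each had 2 probes and a ratio on 0 arrays. Whether the signal at YPL276W came from the pseudogene or from FDH1 was not tested.

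YBR013C, on chromosome II, had ratios of 1.95, 1.91 and 2.22 on arrays 2 to 4, with a mean of 2.03 ± 0.17 (SD, n = 3; limma, adjusted p = 0.00513). Those of YCL049C, on chromosome III, were 0.76, 3.19 and 1.92, with a mean of 1.96 ± 1.22 (SD, n = 3; limma, adjusted p = 0.0386). The arrays thus agreed for YBR013C and differed by over 2 log2 for YCL049C, which was not called when array 3 (adjusted p = 0.0940) or array 4 (adjusted p = 0.112) was left out. YLR162W, on chromosome XII, had ratios of 1.70, 0.79 and 1.28 on arrays 2 to 4, with a mean of 1.26 ± 0.45 (SD, n = 3; limma, adjusted p = 0.0226). It was not called with array 2 (adjusted p = 0.0739) or array 4 (adjusted p = 0.116) left out, with the arrays of a title code averaged (adjusted p = 0.0638) and with the lower-numbered probe alone (adjusted p = 0.0774). The next gene to its left in the gene table was RDN5-6, a gene for 5S ribosomal RNA, which had no probe here.

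Below the median, YNL165W and YJL118W had the lowest means. YNL165W had ratios of -0.98, -3.20 and -2.87 on arrays 2 to 4, with array 2 nearer to the median than the others, and a mean of -2.35 ± 1.20 (SD, n = 3; limma, adjusted p = 0.0232). Its value on array 2 was the mean of probes at -1.67 and -0.29, and the second of these had no other ratio. With the lower-numbered probe alone its mean was -2.62 (limma, adjusted p = 0.01135). The ratios of YJL118W were -1.84, -2.53 and -2.24, with a mean of -2.20 ± 0.35 (SD, n = 3; limma, adjusted p = 0.00560). Centred within blocks of 400 consecutive probes, YJL118W moved to -1.14 (adjusted p = 0.0234) and YNL165W to -2.60 (adjusted p = 0.0255).

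YMR244W and YNL208W had the smallest spread between arrays of all 29. YMR244W had -1.56, -1.56 and -1.67 on arrays 2 to 4, with a mean of -1.59 ± 0.06 (SD, n = 3; limma, adjusted p = 0.00640). YNL208W had -1.34, -1.24 and -1.15, with a mean of -1.24 ± 0.10 (SD, n = 3; limma, adjusted p = 0.0120). The level of YMR244W moved to -0.53 when centred within blocks of probes and was no longer called (adjusted p = 0.153), while YNL208W kept -0.98 (adjusted p = 0.0350). YLR278C, which codes for a protein of the zinc cluster family of transcription factors, had -1.34, -1.12 and -2.04, with a mean of -1.50 ± 0.48 (SD, n = 3; limma, adjusted p = 0.0152). With array 4 left out and the same features, the calls of YNL165W, YMR244W, YNL208W and YLR278C ended (adjusted p = 0.0912, 0.0587, 0.0847 and 0.0940), and that of YJL118W held (adjusted p = 0.0423). Without array 3 those of YNL165W and YNL208W ended (adjusted p = 0.0851 and 0.0605), and without array 2 that of YLR278C (adjusted p = 0.0543). In the planned fits, YJL118W was not called without array 4 or without array 3 (limma, adjusted p = 0.087 and 0.0519). In each of these planned fits, 0 of the 29 were called below.

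Retrotransposon reading frames were still among the 29 after the 10 named in the rule had been left out. YAR009C, YBL005W-B, YBR012W-B and YHR214C-B belong to Ty1 elements, which yeast carries in many nearly identical copies, so that each spot can take up RNA of other copies. YHR214C-B had ratios of 0.71, 1.01 and 0.61 on arrays 2 to 4 and lay above the median at 0.78 ± 0.21 (SD, n = 3; limma, adjusted p = 0.0460). Those of YBR012W-B were -0.96, -0.57 and -0.74, and it lay below at -0.76 ± 0.19 (SD, n = 3; limma, adjusted p = 0.0467). These are means of 2 probes, and on array 4 the lower-numbered probe of YHR214C-B, at -0.98, stood below both probes of YBR012W-B, at -0.79 and -0.69. Both calls lay next to the threshold. They ended when each array was centred on all features instead of genes alone (adjusted p = 0.0530 for YHR214C-B and 0.0519 for YBR012W-B), when the code in the array titles was fitted as a random effect (adjusted p = 0.0504 and 0.0531) or arrays of one code were averaged (adjusted p = 0.104 and 0.141), and when array 2, 3 or 4 was left out (adjusted p between 0.105 and 0.232). Both also ended with centring within blocks of probes, with features on at least 2 arrays, with named genes alone and with a term for the channel assignment.

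YAR009C, at 0.61, 0.55 and 0.81 on arrays 2 to 4, had a mean of 0.66 ± 0.14 (SD, n = 3) and did not pass (limma, adjusted p = 0.0628). YBL005W-B, at -0.34, -0.90 and -1.50, had -0.91 ± 0.58 (SD, n = 3) and did not pass either (limma, adjusted p = 0.0688). Centred within blocks of probes, YAR009C had 0.07 and YBL005W-B -0.36. Of the 10 Ty frames that the rule left out, 6 had ratios on at least 3 arrays. Among them YCL019W lay at 3.72 ± 0.51 and YMR050C at 1.13 ± 0.34, both called above, and YJR027W at -2.41 ± 1.69, called below (SD, n = 3; limma, adjusted p = 0.00403, 0.0226 and 0.0466). The other 3, YJR029W at 0.80, YMR045C at 0.21 and YER138C at -0.03, did not pass (adjusted p = 0.128, 0.599 and 0.934). Without the 4 Ty1 frames, 6 of the remaining 25 open reading frames lay above the median and 5 below, with a median of 0.13.

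The subtelomeric Y' elements, repeats at the ends of many chromosomes, were represented by YEL076C-A on chromosome V and YLR462W on chromosome XII. YEL076C-A had ratios of 6.73, -0.59, 0.67 and 0.14 on arrays 1 to 4. Its mean of 1.74 ± 3.37 (SD, n = 4) rested on array 1, was not called (limma, adjusted p = 0.300) and was 0.08 without that array. On array 1 both of its probes were high, at 7.34 and 6.13. YLR462W had -0.24, -0.17 and 0.82 on arrays 2 to 4 and a mean of 0.13 ± 0.59 (SD, n = 3; limma, adjusted p = 0.736). Of the 7 YRF1 genes, which code for the Y' helicases, 6 had no ratio and YRF1-7 stood at 0.61 ± 0.30 (SD, n = 3; limma, adjusted p = 0.0963).

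Of the 16 open reading frames that did not pass, 5 lay on 1 side of the median on every array with a ratio. These were YAR009C, YBL005W-B, YDR341C, YDL199C and YFR035C. YDR341C, which codes for the cytoplasmic arginyl-tRNA synthetase, had 0.67, 0.41 and 0.92 on arrays 2 to 4, with a mean of 0.67 ± 0.26 (SD, n = 3; limma, adjusted p = 0.0708). YDL199C, of the sugar transporter family by its sequence, had -0.14, -1.59 and -2.06, with a mean of -1.26 ± 1.00 (SD, n = 3; limma, adjusted p = 0.0763). Without array 1, which had no ratio for them, YAR009C, YBL005W-B, YDR341C and YDL199C passed (adjusted p = 0.0381, 0.0420, 0.0445 and 0.0475), with means as before. YFR035C, at 1.68, 0.33 and 0.21 on arrays 1, 2 and 4, had 0.74 ± 0.82 (SD, n = 3; limma, adjusted p = 0.175), and 0.27 without array 1.

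The other 11 lay on both sides of the median. Array 2 stood apart from arrays 3 and 4 for several of them. YMR085W, whose product resembles the amidotransferase Gfa1, had 3.13, -0.68 and 0.18 on arrays 2 to 4, and YBR138C had -0.52, 2.01 and 1.47. YNL035C, a WD-repeat protein, had 1.40, -0.98 and -0.22. Its array 3 value came from the higher-numbered probe alone and its array 4 value from the lower-numbered probe alone. YBR138C passed without array 2, at a mean of 1.74 (limma, adjusted p = 0.0324). That mean rested on its higher-numbered probe and on arrays 3 and 4, which share the channel of the precipitated RNA. With a term for the channel assignment, the mean of YMR085W moved from 0.88 to 1.44, with array 2 alone in its channel.

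YDL211C had 0.62, -2.80, -0.02 and -0.01 on arrays 1 to 4, and only array 2 was far from the median. YPL216W, similar in sequence to the chromatin remodelling subunit Itc1, was measured on all 4 arrays, at -0.20, -0.17, 0.04 and 0.04, with a mean of -0.07 ± 0.13 (SD, n = 4; limma, adjusted p = 0.731). Its value on array 1 was the mean of probes at -0.76 and 0.36. The means of YFR006W, YNL035C, YPR172W, YDR249C and YGR201C were 0.23, 0.07, 0.06, -0.02 and -0.68, with adjusted p between 0.199 and 0.977. A p that misses the threshold does not show that a transcript lay at the median.

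Each of the 29 had 2 probes, with consecutive numbers on the array, and whether they held 1 sequence is not stated by the annotation. Both probes gave ratios for 22, and 1 probe alone for 7. Of the called open reading frames, YCL049C and YPL276W had ratios from the lower-numbered probe only. YJL118W, YLR278C and YMR244W had them from the higher-numbered probe only, so their values could not be compared between probes. On the 50 occasions when both probes of an open reading frame had a ratio on the same array, they lay on opposite sides of the array median 9 times. The mean absolute difference between the probes had a median of 0.83 log2 over the 22, against 0.43 over 366 genes with a standard name. This is a description of these arrays, and the difference between the gene groups was not tested.

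For some of the called open reading frames the probes differed in the same direction on every array. The probes of YHR214W stood at 0.84 and 4.87 on array 2, at 1.44 and 4.67 on array 3 and at 1.23 and 5.53 on array 4. The lower-numbered probe of the Ty1 frame YHR214C-B stood at -0.46, 0.26 and -0.98 on arrays 2 to 4 and the higher-numbered one at 1.88, 1.76 and 2.20. Both probes of YHR214W were thus above the median on each array, while those of YHR214C-B gave opposite sides on 2 of 3 arrays, and the lower-numbered one alone gave a mean of -0.44 (adjusted p = 0.293).

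YBR013C had 3.08, 2.62 and 3.08 with the lower-numbered probe and 0.82, 1.21 and 1.36 with the higher-numbered one. For YBL005W-B the lower-numbered probe stood at -1.12, -1.55 and -2.28 and the higher-numbered one at 0.45, -0.26 and -0.73, a difference of 1.29 to 1.57 on each array. The value of YDL199C on array 2, -0.14, was the mean of -2.27 and 1.99, and the second of these probes had no other ratio. With the lower-numbered probe alone, YDL199C and YBL005W-B lay below the median at -2.02 and -1.69 (limma, adjusted p = 0.00659 and 0.0164). Of the 13 open reading frames with both probes on at least 2 arrays, the difference had 1 sign on every array for 8 and averaged over 1 log2 for 4, which were YHR214W, YHR214C-B, YBR013C and YBL005W-B.

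**Figure D3:**
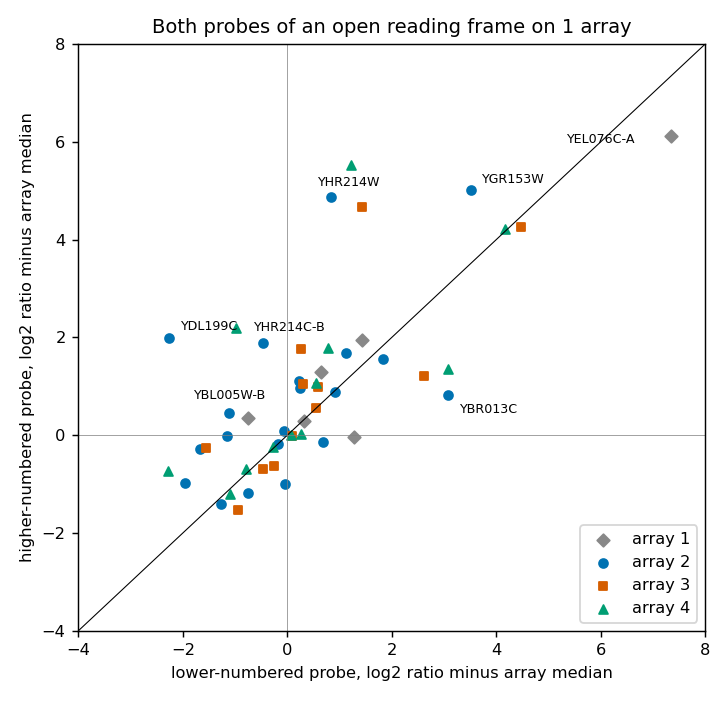
Each point is 1 open reading frame on 1 array, with the log2 ratio minus the array median of its lower-numbered probe on the horizontal axis and of its higher-numbered probe on the vertical axis, and the diagonal marks equal values. The points of YHR214W lie far above the diagonal on arrays 2 to 4, whereas those of YGR153W lie near it on arrays 3 and 4.

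Neighbours in the genome were looked up in the gene table, since transcripts of adjacent genes can overlap. A gene overlapping the open reading frame was listed for 6 of the 29, and 0 of these overlapping genes had a ratio on at least 3 arrays. The nearest genes on either side included 8 that did, for 8 of the open reading frames, and 4 of these 8 lay on the same side of the median as the open reading frame. YHR214W with YHR214C-B and YBR013C with YBR012W-B are neighbours within the 29, and so count from both sides.

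YGR153W and its neighbour shared the pattern over the arrays. The next gene to the right of YGR153W, on the opposite strand, is GTO1, which codes for an omega-class glutathione transferase. GTO1 had ratios of -0.14, 3.38, 3.03 and 2.96 on arrays 1 to 4, where YGR153W had 0.30, 4.26, 4.37 and 4.20. Both were near the median on array 1 and far above it on arrays 2 to 4, with GTO1 at a mean of 2.31 ± 1.64 (SD, n = 4; limma, adjusted p = 0.0333). Array 1 was only weakly correlated with arrays 2, 3 and 4 over the genes with a standard name (r = 0.033, 0.220 and 0.139). A value near the median on array 1 is thus not particular to this pair. RNA of one gene on the spot of the other was not tested.

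At the neighbouring pair of YHR214W and the Ty1 frame YHR214C-B, both were called above, at 3.10 and 0.78. YBR013C, at 2.03, lay beside the Ty1 frame YBR012W-B, at -0.76, on the opposite side of the median on arrays 2 to 4. YDR341C, at 0.67, lay beside HXT7, a hexose transporter gene called above at 1.90 ± 0.20 (SD, n = 3; limma, adjusted p = 0.00575). YGR201C, at -0.68, lay beside ELP2, of the Elongator complex, at 2.18 ± 0.21 (SD, n = 3; limma, adjusted p = 0.00473), and YPL216W, at -0.07, beside CBP3, an assembly factor of respiratory complex III, at 0.94 ± 0.30 (SD, n = 3; limma, adjusted p = 0.0334). Thus, going by means, adjacent transcripts stood on the same side in some places and apart in others. YGR201C and YPL216W were not called, and lay above the median on array 3 and on arrays 3 and 4. How often neighbours share a side over all genes was not tested.

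**Figure D4:**
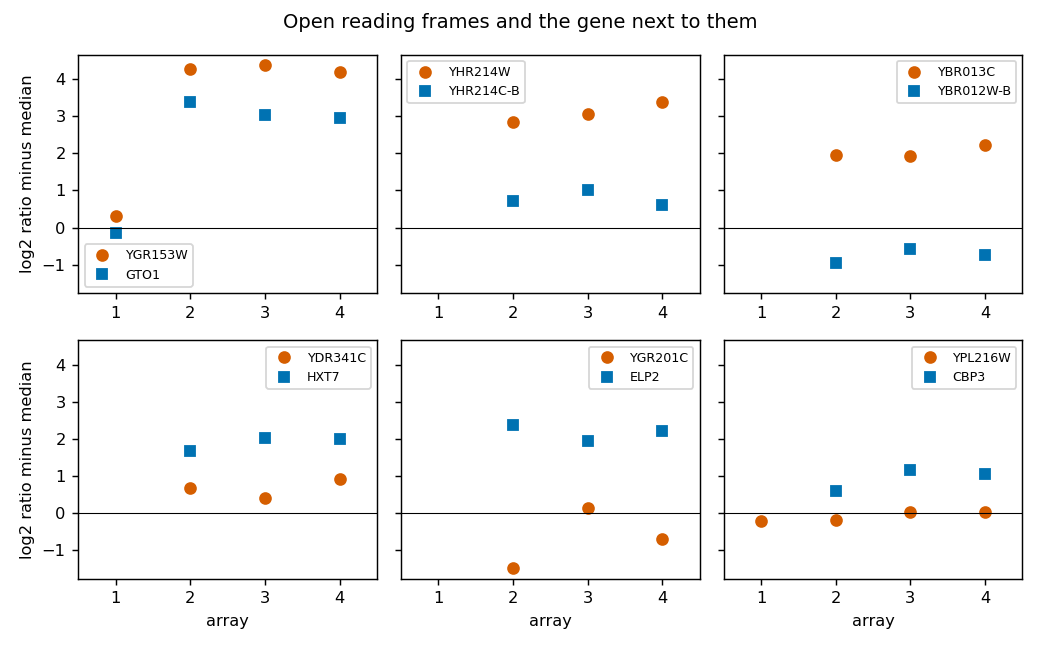
The log2 ratio minus the array median (vertical axis) is given on each array (horizontal axis) for 6 open reading frames (circles) and the gene next to each (squares), with 1 pair per panel and no point where an array had no ratio. YGR153W and GTO1 stand near 0 on array 1 and between 2.96 and 4.37 on arrays 2 to 4.

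The open reading frames were spread over the genome and over the array. The 29 lay on 13 chromosomes, with 4 on each of chromosomes II and IV. Left arms held 11 and right arms 18, and 15 were on the W strand and 14 on the C strand. Their probes lay in 17 of 32 blocks of 400 consecutive probes, with at most 4 open reading frames in a block. Centred within these blocks, 6 lay above the median and 4 below, where the calls over all features went from 134 and 150 to 107 and 99, and the calls of YBR012W-B, YHR214C-B and YMR244W ended.

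The ratios of the open reading frames were positively correlated between arrays 2, 3 and 4, least so between arrays 2 and 3. Pearson's r over the open reading frames was 0.944 for arrays 3 and 4 (27 shared), 0.740 for arrays 2 and 4 (29 shared) and 0.640 for arrays 2 and 3 (27 shared). Over the genes with a standard name the same pairs of arrays had 0.886, 0.863 and 0.794. Arrays 3 and 4 share the channel of the precipitated RNA, and array 2 has the other. Array 1 shared 6 open reading frames with array 2 and 6 with array 4, at r = -0.189 and -0.227. Over the genes with a standard name array 1 had r = 0.033, 0.220 and 0.139 with arrays 2, 3 and 4 (91, 78 and 86 shared). The open reading frames are not independent replicates, and these values describe the arrays.

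**Figure D5:**
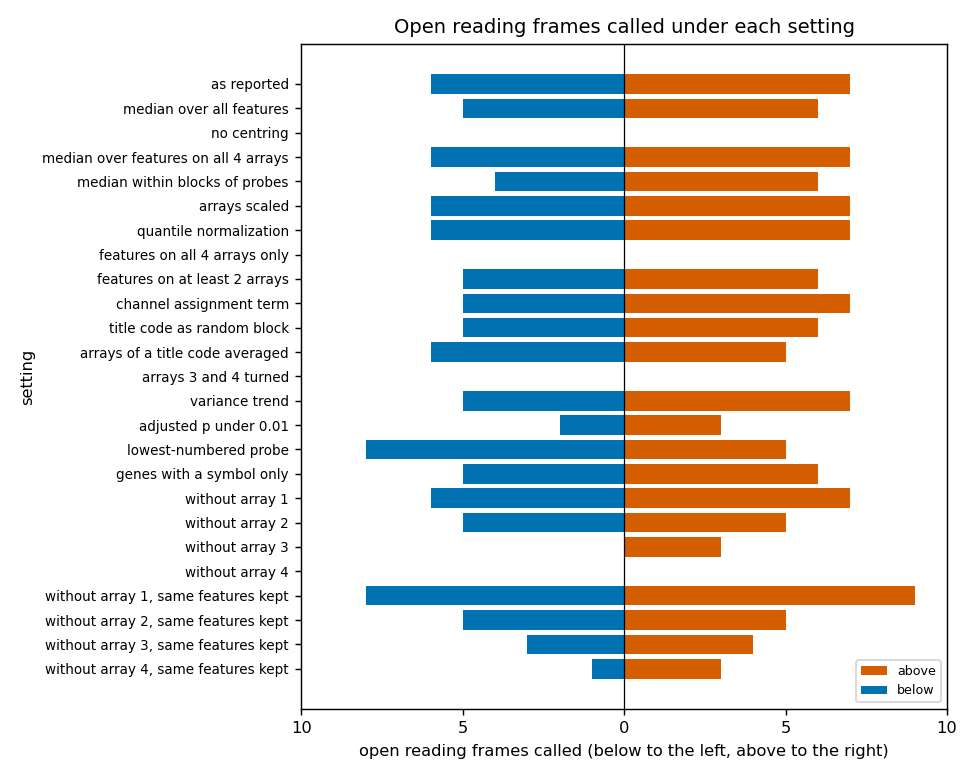
Bars give the number of open reading frames called above the array median (to the right) and below it (to the left) under each setting (vertical axis), from the fit as reported at the top to those with 1 array left out at the bottom. With the fit as reported, 7 lie above and 6 below, and no bar is drawn where 0 were called, as without centring.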

How the data were processed

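The authors deposited log ratios, taken here as log10, 1 per probe and array, from 4 two-colour arrays. That the base is 10 was judged from the values and was not tested. With another base, every log2 and fold value would change, but not the sides of the median. Not given in the sources used here are the background correction, the normalization, the build and the reason why many probes lack a ratio. Gene symbols came from GEO's annotation of the platform, which is of an older date: 11138 probes carried 1 symbol, 0 carried several and 1662 carried none. All 29 open reading frames matched the RefSeq table by Entrez identifier. Repeated rows (2) were averaged. The deposited ratios, taken as log10, were turned into log2, and probes of a gene were averaged. The median over genes with ratios on at least 3 arrays was subtracted on each array. A two-sided test of the mean against 0 used limma 3.58.1 (lmFit, eBayes) under R 4.3.3 over all 596 features (498 genes and 98 unnamed probes). Errors are SDs over arrays. Python 3.11.15, pandas 2.3.3 and matplotlib 3.10.9 did the rest. The fit was run on simulated ratios with a common SD and independent errors. That run does not cover the unequal spread of these features.

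The open reading frames and groups were chosen with earlier results of these data known. Every called open reading frame was named, with its values, and so were the others and the neighbours with ratios on at least 3 arrays. The Ty1 and Y' groups were chosen after the values were seen. No sequences were used. Alternatives changed the centring, the scaling, the limits on missing values, a channel term, the title code, the direction, the variance model, the threshold, the probes and the arrays. Leaving out arrays with the 596 features kept was added after seeing the data. Adjusted p-values without an array are from these fits, unless a planned fit is named.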

Additional observations from a re-analysis of the deposited data

Results flagged for a closer look

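Among the 4 open reading frames with a ratio on all 4 arrays, each was examined for 1 array far from the other 3, where chance would flag about 1 in 20. Only YGR153W met the criterion, through its value of 0.30 on array 1, a gap to the next array of 0.958 of its whole range. YEL076C-A, at 0.828 with the high value on array 1, came just short of it.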

How the results depend on the processing

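Calls depended on the centring and on the number of arrays. Without centring 0 open reading frames were called above and 0 below (limma; 2 of the 29 at an unadjusted p under 0.05), as were 0 of all 596 features. Every gene of an array then moves by 1 constant, which put the median at -1.06 and YHR214C-B at -0.42. With features on all 4 arrays only, 4 open reading frames were left, of which 0 were called above and 0 below (limma; 1 at an unadjusted p under 0.05), with a median of 0.67, where 9 and 7 of all 80 features were. With arrays 3 and 4 turned, 0 were called above and 0 below (limma; 0 at an unadjusted p under 0.05), also among all features, and every mean called before changed sign: YBR012W-B had 0.12, YBR013C -0.73, YCL049C -1.45, YGR153W -0.9995, YHR214C-B -0.30, YHR214W -1.19, YJL118W 0.98, YLR162W -0.12, YLR278C 0.61, YMR244W 0.55, YNL165W 1.70, YNL208W 0.35 and YPL276W -0.69. Of the called open reading frames, 12 had no ratio on array 1 and lay on 1 side of the median on arrays 2 to 4. Turning arrays 3 and 4 makes a change of sign nearly certain for these and a call unlikely, so neither is a separate result. At an adjusted p under 0.01, 3 lay above and 2 below, and 66 and 60 of all features. With the lowest-numbered probe, YHR214C-B had -0.44. With 1 array left out and features on at least 2 of the other 3, 0 to 7 were above and 0 to 6 below, with a median of 0.14 to 0.55. In these fits 0 were called above and 0 below without array 4 (limma; 10 of the 29 at an unadjusted p under 0.05), and 3 and 0 without array 3 (11 at an unadjusted p under 0.05), where 0 and 0 of 765 features and 45 and 34 of 851 were called. With the 596 features kept, an alternative chosen after seeing the data, 4 lay above and 3 below without array 3, 3 above and 1 below without array 4, 5 and 5 without array 2, and 9 and 8 without array 1. Calls over all 596 features, 134 above and 150 below as reported, were then 83 and 88, 45 and 41, 100 and 108, and 168 and 174. In the other settings the counts stayed within 1.5 times those reported, at 5 to 7 above and 4 to 8 below. No paired analysis was possible because the 4 arrays formed 1 group. Signal over background was not used here.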

Other observations

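Beside the open reading frames described above, 89 with systematic names only had a ratio on a single array, and 279 had none. Of the 89, 64 were on array 2 alone, with log2 ratios of -2.14 to 2.33 around a median of -0.32, and 24 on array 1 alone, with -4.14 to 4.44 around a median of -1.49. Array 4 alone held 1 and array 3 alone held 0.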
